A study of Mus musculus with 36 samples.

Results

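The 10 imprinted genes Igf2, H19, Dlk1, Meg3, Rian, Mirg, Peg3, Plagl1, Cdkn1c and Grb10, which control growth, were followed in RNA sequencing libraries of fetal mouse neural stem cells (NSCs) and of the extracellular vesicles (EVs) these cells secreted. The genes were taken by name, and all 10 were present among the 40205 features counted. NSCs came from the dorsal telencephalon of C57BL/6J fetuses (WT in the labels, while the methods name the Ai14 line) at gestational day 12.5, were pooled by fetal sex within each of 3 pregnancies (sets 3, 4 and 5) and were kept as neurospheres to passages 7 to 10. The 6 cultures are named by set and sex (3F, 3M, 4F, 4M, 5F and 5M), and each was kept for 5 days at 0 (control), 120 or 320 mg/dL ethanol. Every culture and dose gave 1 cell library and 1 EV library, so that 36 libraries formed 12 groups of 3, by location, sex and dose. A culture is a single pool of littermates that had been expanded before treatment, and its 3 libraries per location differ in dose.

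An imprinted gene is read mostly from the maternal or the paternal copy, according to methylation marks set in the germ line, and most of these genes act on fetal growth. Igf2, Dlk1, Peg3 and Plagl1 are paternally expressed, and H19, Meg3, Cdkn1c and, in most tissues, Grb10 maternally, and Igf2 and H19 as well as Dlk1 and Meg3 are reciprocal neighbours under a shared control region. Total counts per gene do not separate the parental copies, so imprinting itself was not measured here.

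Libraries held 26.6 to 55.3 M counts in cells (median 37.8 M) and 0.959 to 5.51 M in EVs (median 3.83 M), and 6 EV libraries, among them those of 4F at the 3 doses, held under 2 M. Levels below are CPM after TMM scaling, that is, counts scaled to a common library size of 1 M. On this scale 3 counts, the limit that a count of 0 allows, are worth 0.0353 to 0.118 CPM in cells and 0.701 to 5.06 CPM in EVs, for counting error only. Of 8 NSC markers, 7 had counts in cells, and the markers summed to between 1555 and 3390 CPM in cells and between 629.6 and 1133 CPM in EVs. Sox2, a defining marker, is listed at 0 in every library, and whether this reflects absence of the RNA or the counting was not tested.

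The 10 genes differed widely in level. Per kilobase of merged exons, the mean in cells was highest for Peg3, a zinc finger protein, at 3.97 CPM per kb (2.07 to 6.27 over 18 libraries). Grb10, an adaptor that restrains insulin and IGF receptor signalling, followed at 2.08 CPM per kb (0.245 to 6.62), and then Plagl1, a zinc finger transcription factor, at 1.49 CPM per kb (0.581 to 2.56). H19, a long noncoding RNA, was at 0.545 CPM per kb and Cdkn1c, an inhibitor of cyclin-dependent kinases, at 0.319 CPM per kb. The remaining genes were lower, with Dlk1, a transmembrane protein related to Notch ligands, at 0.0398, Igf2, a fetal growth factor, at 0.0356, and the noncoding RNAs Rian, Meg3 and Mirg at 0.0144, 0.00818 and 0.00644 CPM per kb. The step from Cdkn1c to Dlk1 was the only one between neighbours in this order where the libraries did not overlap. In EVs Peg3 was again first at 3.29 CPM per kb, but Igf2 was second at 2.76 (0.353 to 7.00), ahead of H19 at 1.21 and Grb10 at 0.924, and every pair of neighbours overlapped. The rank of the noncoding RNAs rests on the length used. Per kilobase of the canonical transcript, Rian at 0.143 and Meg3 at 0.0953 CPM per kb stood above Igf2 at 0.0592 in cells.

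The first question of the design was how the RNA of EVs differed from that of the cells that released them. Igf2 was almost absent from cells and was counted in every EV library. Dlk1 and Rian were also higher in EVs, H19 and Cdkn1c were modestly higher, and Plagl1, Grb10 and Peg3 were lower. By edgeR's quasi-likelihood test with Benjamini-Hochberg adjustment, 8 of the 10 genes had enough counts to be tested, 5 were called higher in EVs and 3 lower. Calls were common in this comparison, since 80.5% of the 15281 genes tested were called, 38.4% as higher in EVs and 42.2% as lower, which is the background for these counts. Of those called 47.6% were higher in EVs, against 27.0% with library totals in place of TMM and 72.9% by DESeq2. The median log2 difference was 1.12 over the 8 genes and -0.08 over all genes tested. The filter on low counts takes both locations together, and Igf2, Dlk1 and Rian passed it only through their EV libraries. By library totals Igf2 and Dlk1 reached at most 0.533 and 0.568 CPM in cells. This median and the 5 to 3 split are therefore partly set by the filter. The sizes depended on the scaling and the filter. With library totals the log2 differences were 5.47 for Igf2, 1.95 for Dlk1, 1.62 for Rian, -2.74 for Plagl1, -1.90 for Grb10 and -1.04 for Peg3, and with no filter on low counts 5.66, 2.18, 1.79, -2.57, -1.70 and -0.89, all in the same direction as the values below.

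**Figure D1:**
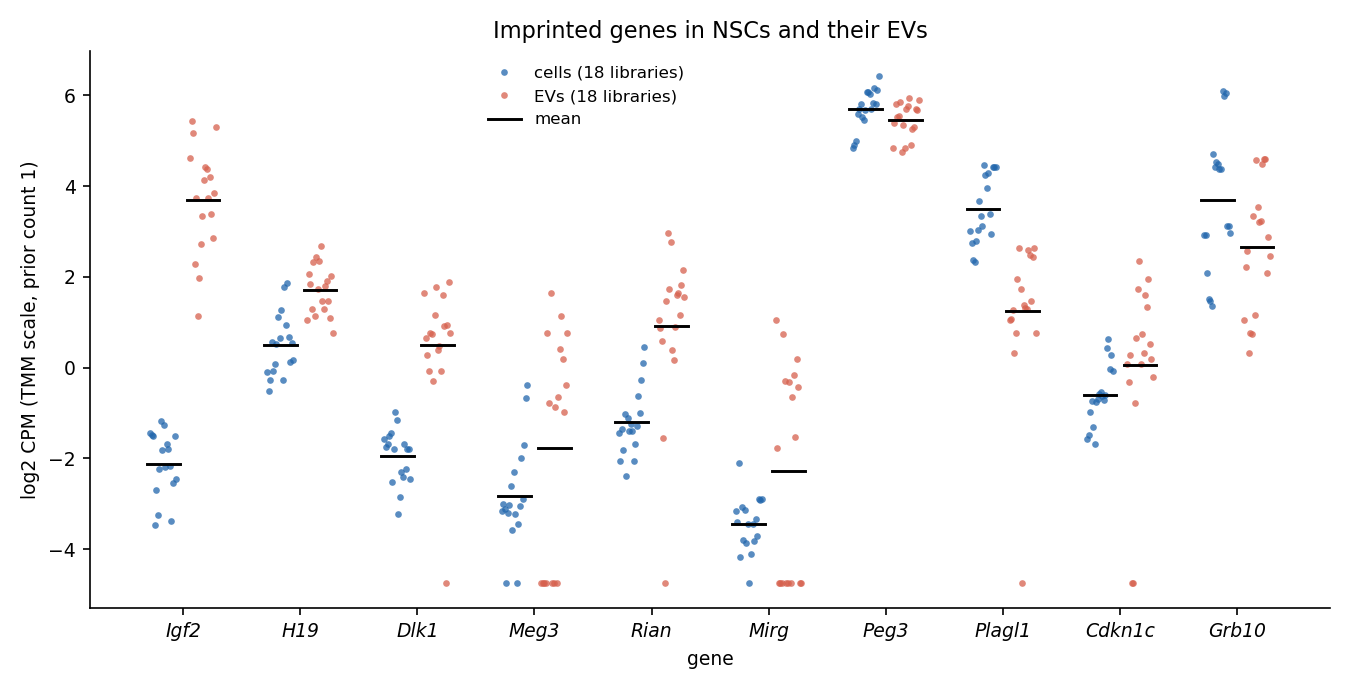
Level of each gene in 18 cell libraries (blue) and 18 EV libraries (red), as log2 CPM on one TMM scale with a prior count of 1, where each point is a library and each bar the mean of 18. The points at the lowest line are libraries with 0 counts, and Igf2 is the gene whose EV points all lie above its cell points.

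Igf2 lies on chromosome 7 of GRCm39 from 142204503 to 142220694, on the minus strand, and is overlapped by Igf2os on the other strand. In cells it had 3 to 26 counts per library, or 0.0527 to 0.406 CPM with a median of 0.215. In EVs it had 4 to 168 counts, or 2.18 to 43.2 CPM with a median of 13.8. The 18 EV libraries were all above the 18 cell libraries, which held for 8.99% of the genes tested. The log2 difference was 6.27 (SE 0.34, adjusted p = 1.7e-18), a 77.0-fold higher level, with 61 as its rank from the top among 15281 genes.

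The difference in Igf2 was seen in each culture. In 3F the control, 120 and 320 mg/dL libraries had 24.6, 43.2 and 36 CPM in EVs and 0.329, 0.317 and 0.314 CPM in cells. In 3M they had 4.83, 13.2 and 2.18 CPM in EVs and 0.0527, 0.118 and 0.0683 CPM in cells. These were the cultures with the highest and the lowest mean in both locations, 34.6 and 6.75 CPM in EVs and 0.32 and 0.0795 CPM in cells. The ratio of means was 108 in 3F, 84.8 in 3M, 24.8 in 4F, 70.9 in 4M, 84.8 in 5F and 102 in 5M. The lowest ratio belonged to 4F, whose EV libraries held 5, 6 and 6 Igf2 counts. Without the 6 EV libraries under 2 M counts the log2 difference was 6.33, and with control libraries only it was 5.63. Igf2os itself had at most 6 counts summed over the 3 cell libraries of a culture and at most 5 over its EV libraries, and whether reads were counted by strand is not stated in the sources used here.

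Igf2 is a product of meninges, choroid plexus and vessels in the fetal brain, and markers of these tissues were low in cells and had higher sums in EVs. The 5 fibroblast and meningeal markers, all with counts, summed to 0.580 to 2.97 CPM in cells (median 0.933) and 2.95 to 27.0 CPM in EVs (median 4.10). For the 3 choroid plexus markers the sums were 0.440 to 0.930 CPM (median 0.628) and 1.63 to 34.8 CPM (median 8.61). Most of the choroid plexus sum was Kl, with a median of 0.452 CPM in cells and 8.31 in EVs, while Ttr, the defining marker, had a median of 0 in EVs. The 4 endothelial markers summed to 0.633 to 2.25 CPM in cells (median 1.17) and, with Cldn5 at 0 in EVs, to 1.51 to 20.3 CPM (median 3.84). Sums of other low markers were also higher in EVs, with medians of 0.438 CPM in cells and 2.17 in EVs for microglia and 5.66 and 10.4 for oligodendrocytes. Those of neurons (30.2 and 27.5), astrocytes (75.5 and 36.6) and NSCs (2124 and 879.5) were lower. The part of any of these markers in the result was not tested.

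**Figure D2:**
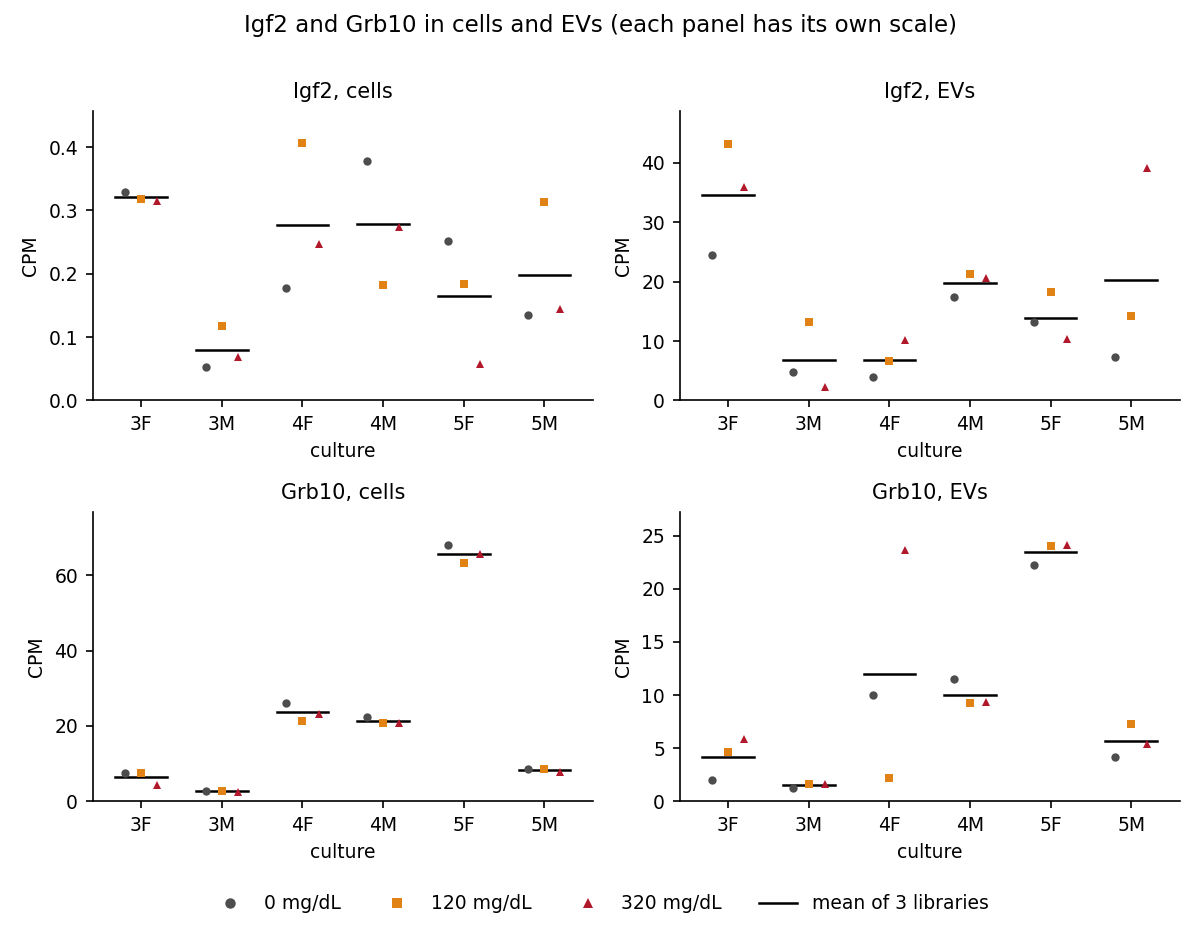
CPM of Igf2 (top) and Grb10 (bottom) in cells (left) and EVs (right) for each culture, with 1 point per ethanol dose, a bar for the mean of 3 libraries and a separate scale in each panel. Igf2 reaches 0.406 CPM in cells and 43.2 CPM in EVs, and Grb10 is highest in 5F in both locations.

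Dlk1 and the noncoding RNAs of its region lie together on chromosome 12, Dlk1 from 109418749 to 109429262, Meg3 from 109506877 to 109538165, Rian from 109570242 to 109628150 and Mirg from 109696198 to 109715898, all on the plus strand. Dlk1 had 0.0688 to 0.468 CPM in cells (median 0.252) and 0 to 3.66 CPM in EVs (median 1.64), and the 5F EV library at 320 mg/dL had no count. Its log2 difference was 2.80 (SE 0.26, adjusted p = 2.9e-12). Rian, which hosts small nucleolar RNAs and microRNAs, had 0.154 to 1.33 CPM in cells (median 0.362) and 0 to 7.73 CPM in EVs (median 2.46), a log2 difference of 2.46 (SE 0.32, adjusted p = 1.5e-08). The EV library without counts was the only one of Dlk1 that reached down into its cell libraries, while 4 EV libraries of Rian did so. Meg3 and Mirg had 30 and 20 counts in all EV libraries together and fell below the filter on low counts, with no count in 7 and 8 of 18 EV libraries. Fitted without the filter by edgeR, their log2 differences were 1.53 (adjusted p = 0.016) and 2.24 (adjusted p = 8.8e-05). That fit called 22029 of 31069 genes, with a median log2 difference of 0.46 over all of them. Rtl1 overlaps the start of Rian on the opposite strand, so reads there cannot be told apart without a stated strand setting.

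The other genes moved less. H19, on chromosome 7 from 142129262 to 142133957, had 0.663 to 3.61 CPM in cells (median 1.4) and 1.67 to 6.39 CPM in EVs (median 3.36), a log2 difference of 1.12 (SE 0.24, adjusted p = 5.3e-05). Cdkn1c, on chromosome 7 from 143012069 to 143014806, had 0.273 to 1.5 CPM in cells (median 0.592) and 0 to 5.06 CPM in EVs (median 1.2), a log2 difference of 1.12 (SE 0.31, adjusted p = 0.0015). The libraries of the 2 locations overlapped for both genes. With library totals in place of TMM, which moved the median of all genes tested from -0.08 to -0.88, both differences shrank to 0.34 (adjusted p = 0.18) and 0.29 (adjusted p = 0.36), so that the calls were lost. The Cdkn1c call was also lost without set 4 (adjusted p = 0.066).

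Plagl1, on chromosome 10 from 12936248 to 13007438, was lower in EVs. It had 4.98 to 21.9 CPM in cells (median 10.2) and 0 to 6.22 CPM in EVs (median 2.5), with a log2 difference of -1.92 (SE 0.25, adjusted p = 1.3e-08). Its mean was lower in EVs than in cells in every culture. Grb10, on chromosome 11 from 11880498 to 11988683, had 2.51 to 67.9 CPM in cells (median 14.7) and 1.21 to 24.1 CPM in EVs (median 6.61), a log2 difference of -1.04 (SE 0.40, adjusted p = 0.018). This call was lost without set 4 (adjusted p = 0.088), without set 5 (adjusted p = 0.090) and without the EV libraries under 2 M counts (adjusted p = 0.051). Peg3, on chromosome 7 from 6706882 to 6733468, had 28.3 to 85.7 CPM in cells (median 53.8) and 27.0 to 61.5 CPM in EVs (median 46.1), a log2 difference of -0.26 (SE 0.10, adjusted p = 0.017) that was not past the threshold without set 4 (adjusted p = 0.25) or without set 5 (adjusted p = 0.73).

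The EV to cell difference of Peg3 and Cdkn1c was not equal among cultures. They were 2 of the 8 genes tested as an interaction of location and culture with edgeR, which called 9397 of 15281 genes, so that most genes passed. Peg3 passed (adjusted p = 0.00012), with a range of 1.24 between the highest and the lowest log2 difference, and Cdkn1c passed (adjusted p = 0.030) with a range of 3.49. In 3F, mean Peg3 was 42.3 ± 13.7 CPM (SD, n = 3 doses) in EVs against 30.0 ± 1.70 in cells, while it was 35.8 ± 5.10 in EVs and 59.9 ± 10.3 in cells of 5F. In 4F, mean Cdkn1c was 3.30 ± 1.76 CPM in EVs, from 2, 3 and 3 counts, against 0.588 ± 0.0379 in cells. In 3M it was 0.181 ± 0.314 and 0.4 ± 0.148 CPM, and the EV libraries of 3M held 1 count of it. Each of these EV libraries held no more than the 3 counts that a count of 0 allows. This test was chosen after the data were seen.

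The second question was how far the 6 cultures differed from each other. Grb10 set them apart most. Its level differed 24.4-fold between the highest and the lowest culture in cells, while the 3 doses of a culture lay close together. All 9 genes tested in cells were called as differing between these 6 cultures, against the spread between the 3 libraries of a culture. Meg3 and Rian did so through a high level in 5M, and Meg3 passed the filter on low counts only through that culture. Plagl1 and Cdkn1c had a higher mean in each culture of sets 4 and 5 than in those of set 3. Mirg, with 53 counts over 18 cell libraries, was not tested. The edgeR quasi-likelihood F test over cultures called 68% of the 18725 genes tested in cells, and the median range between cultures on the log2 scale was 1.80 for the 9 genes and 1.00 for all genes tested. In bulk RNA, fewer cells of a type and less RNA per cell cannot be told apart. Marker sums also differed between cultures, from 27.5 CPM in 3F to 209.9 CPM in 3M for 4 astrocyte markers (Aqp4 at 0 in all libraries), while 5 neuronal markers summed to 12 to 13 CPM in 3M and to 18.8 to 122.3 CPM in 3F, where Rbfox3 gave 111.6 CPM in 1 library, and their part in the results was not tested.

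**Figure D3:**
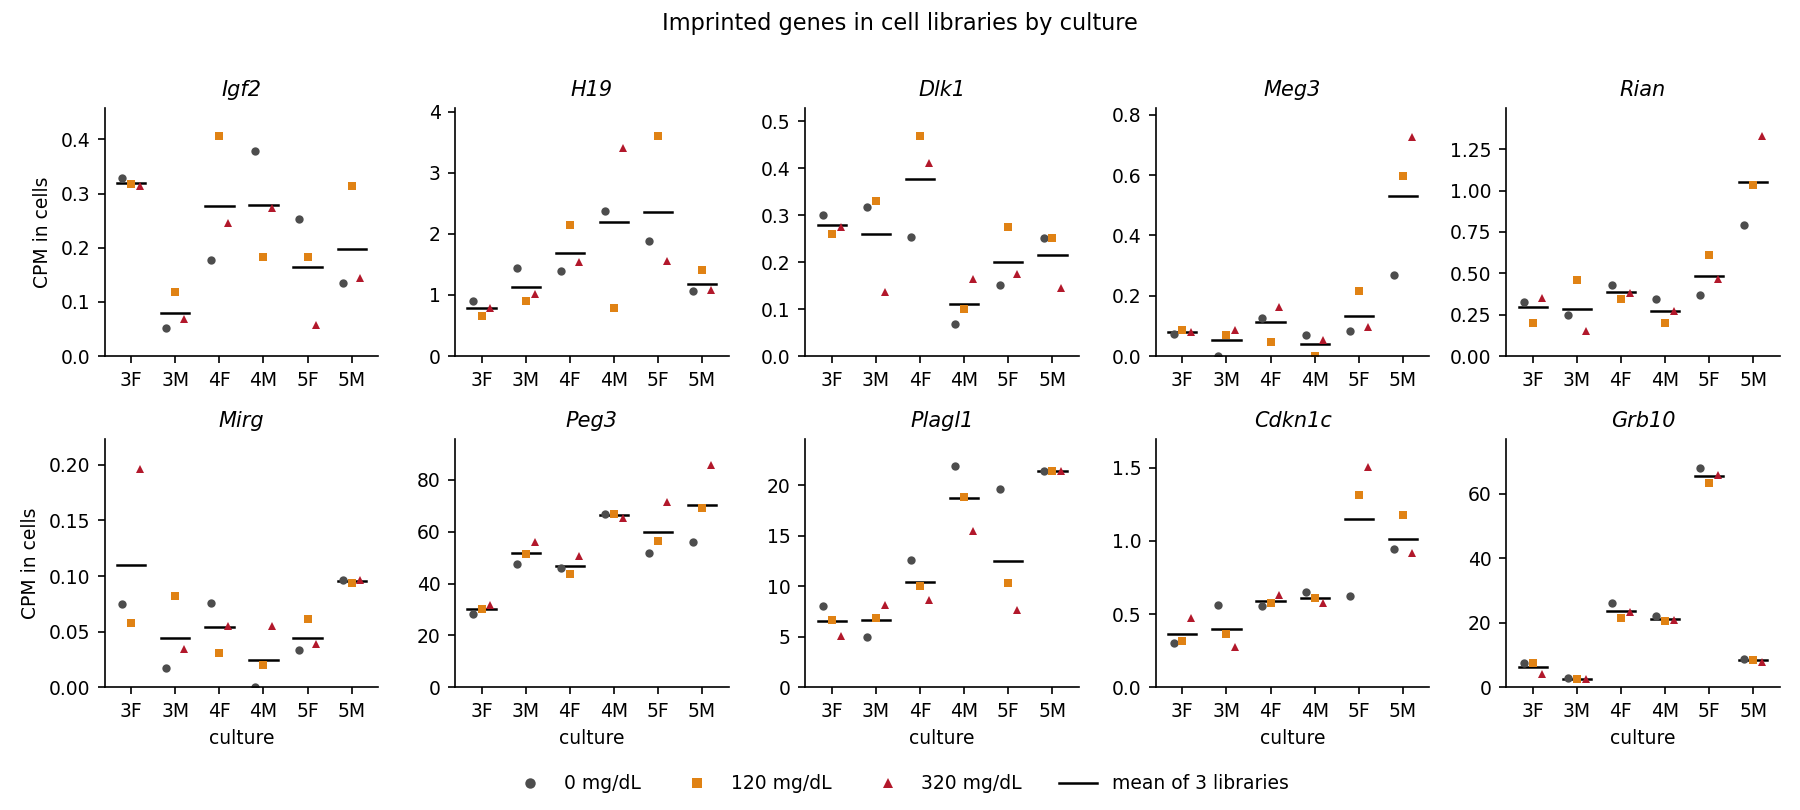
CPM of the 10 genes in cell libraries for each culture, with 1 point per ethanol dose and a bar for the mean of 3 libraries, and a separate scale that starts at 0 in each panel. In Grb10 the 3 points of a culture lie close together and 5F stands near 65.6 CPM, while Meg3 and Rian are highest in 5M.

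Grb10 had 67.9, 63.3 and 65.7 CPM in 5F at 0, 120 and 320 mg/dL. Next came 4F with 26.1, 21.4 and 23.2 CPM and 4M with 22.3, 20.7 and 20.8 CPM, whose ranges overlapped. The 3 libraries of 5M had 8.70, 8.60 and 7.80 CPM, those of 3F had 7.52, 7.56 and 4.2 CPM and those of 3M had 2.83, 2.72 and 2.51 CPM. In 4 of the 5 steps of this order the libraries of neighbouring cultures did not overlap. The range was 4.57 on the log2 scale (adjusted p = 6.8e-10), the 19th smallest p of 18725 genes. The cultures followed the same order in EVs, from 23.5 ± 1.06 CPM in 5F to 1.5 ± 0.252 CPM in 3M (SD, n = 3 doses), with a range of 4.07 (adjusted p = 0.00011). Without set 3 the range was 2.91 in cells and 2.15 in EVs, and without set 5 it was 3.10 and 3.09. The EV library of 4F at 320 mg/dL stood at 23.6 CPM, against 10.0 and 2.20 CPM at 0 and 120 mg/dL, from 14 counts or fewer in each.

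The 2 annotated start sites of Grb10 are shown because this gene set the cultures apart most, although counts per gene do not say which start was used. They are the windows of 300 bases, 250 before and 50 after the start, that RefSeq gives on GRCm38.p6, and capitals mark the letters TGCCGC on either strand, which are the motif of ZFP57, a zinc finger protein that keeps imprints after fertilization. The first window holds 45 CpG dinucleotides, more than 98.1% of the 32851 windows in the table, and the second holds 9.
Grb10 start 1, chr11:12037371-12037670, minus strand: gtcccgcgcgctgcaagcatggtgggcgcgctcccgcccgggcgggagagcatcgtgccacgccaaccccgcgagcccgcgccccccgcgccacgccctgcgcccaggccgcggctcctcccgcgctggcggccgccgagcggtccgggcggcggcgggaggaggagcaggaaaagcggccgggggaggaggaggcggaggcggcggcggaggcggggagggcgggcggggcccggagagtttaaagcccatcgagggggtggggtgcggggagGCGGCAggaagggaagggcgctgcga
Grb10 start 2, chr11:12027922-12028221, minus strand: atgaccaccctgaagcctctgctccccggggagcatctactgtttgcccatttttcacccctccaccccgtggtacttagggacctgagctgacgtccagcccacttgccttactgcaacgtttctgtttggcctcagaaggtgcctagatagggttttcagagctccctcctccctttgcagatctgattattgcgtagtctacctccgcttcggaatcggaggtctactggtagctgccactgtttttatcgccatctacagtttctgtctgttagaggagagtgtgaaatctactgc
The motif was found once in the first window, on the reverse strand, and 11.6% of all windows hold it on either strand. RefSeq windows were found for 8 of the 10 genes, 13 windows in all.

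Meg3 had 0.270, 0.595 and 0.724 CPM in 5M cells at 0, 120 and 320 mg/dL, and between 0 and 0.214 CPM in every other cell library. Rian had 0.790, 1.03 and 1.33 CPM in 5M cells and 0.154 to 0.612 CPM in the other cultures. For both RNAs the libraries of 5M did not overlap those of any other culture, and the order of all 6 cultures was the same. The range was 3.52 for Meg3 (adjusted p = 0.00098) and 1.93 for Rian (adjusted p = 0.0011) on the log2 scale, by the F test over cultures. Meg3 passed the filter on low counts only through its 5M libraries, so its p is partly set by the filter. Over the 18 cell libraries their log2 CPM had a Pearson r of 0.85, the highest of 36 pairs among the 9 genes, where the points share cultures and most Meg3 values are of few counts. Rtl1, which overlaps Rian on the opposite strand, had an r of 0.60 with Rian and 0.48 with Meg3, and Dlk1 had 0.11 and 0.06. Without set 5 the Rian call was lost (range 0.46, adjusted p = 0.72) and Meg3 had too few counts to be tested. In EVs Rian was instead highest in 4F at 5.93 ± 2.33 CPM, from 10, 3 and 4 counts, with 3.61 ± 0.740 CPM in 5M (SD, n = 3 doses). Its range of 2.52 was past the threshold (adjusted p = 0.018, F test over cultures). Without the EV libraries under 2 M counts the range was 3.42, but that fit holds no library of 4F and only the control library of 3M.
A start window of each of these 2 RNAs is shown because their levels were high in the same culture, again from RefSeq on GRCm38.p6 and with TGCCGC on either strand in capitals.
Meg3 start 1, chr12:109540746-109541045, plus strand: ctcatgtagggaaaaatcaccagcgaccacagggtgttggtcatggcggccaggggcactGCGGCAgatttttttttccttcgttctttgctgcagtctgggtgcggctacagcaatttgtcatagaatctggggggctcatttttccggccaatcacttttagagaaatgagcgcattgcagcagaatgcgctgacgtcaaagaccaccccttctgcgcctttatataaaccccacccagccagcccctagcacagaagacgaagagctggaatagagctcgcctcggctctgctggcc
Rian, chr12:109603695-109603994, plus strand: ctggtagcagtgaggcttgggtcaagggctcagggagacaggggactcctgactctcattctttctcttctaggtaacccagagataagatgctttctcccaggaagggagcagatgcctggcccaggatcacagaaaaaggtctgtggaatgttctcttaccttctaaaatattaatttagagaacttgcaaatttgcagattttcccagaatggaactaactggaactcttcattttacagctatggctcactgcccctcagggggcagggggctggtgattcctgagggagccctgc
The first Meg3 window holds 13 CpG dinucleotides and 1 copy of the motif on the reverse strand, and the Rian window holds 0 of both. The second Meg3 window, not printed, holds 1 CpG dinucleotide and 0 copies of the motif.

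Plagl1 had 21.4 CPM in 5M at each dose and 21.9, 18.8 and 15.5 CPM in 4M. It was lowest in set 3, with 5.11 to 8.06 CPM in 3F and 4.98 to 8.19 CPM in 3M, and its range was 1.80 (adjusted p = 0.00015). Peg3 had 28.3 to 31.7 CPM in 3F and 55.9 to 85.7 CPM in 5M, and 3F was apart from the next culture, with a range of 1.29 (adjusted p = 3.5e-06). Cdkn1c was highest in set 5, with 0.622 to 1.5 CPM in 5F and 0.918 to 1.18 CPM in 5M, against 0.299 to 0.471 CPM in 3F (range 1.69, adjusted p = 0.0014). These 3 genes had their lowest mean in 3F. Igf2, H19 and Dlk1 had wide scatter between the doses of a culture. Igf2 had a range of 1.88 (adjusted p = 0.034), H19 of 1.57 (adjusted p = 0.044) and Dlk1 of 1.79 (adjusted p = 0.023), and each lost its call when a set was left out, Igf2 and H19 without set 3 (adjusted p = 0.44 and 0.32), H19 also without set 5 (adjusted p = 0.063) and Dlk1 without set 4 (adjusted p = 0.51). Cdkn1c was not past the threshold without set 5 (adjusted p = 0.079).

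In EVs, where 50.3% of 13193 genes were called, 6 of the 10 genes were tested and 4 were called. Besides Grb10 and Rian, these were Igf2, with a range of 2.65 (adjusted p = 0.0039), and Peg3, with a range of 0.74 (adjusted p = 0.0082). Mean Peg3 was 55.7 ± 5.06 CPM in EVs of 4M and 32.1 ± 7.45 CPM in those of 4F (SD, n = 3 doses). H19 and Plagl1 had ranges of 0.87 (adjusted p = 0.57) and 1.17 (adjusted p = 0.23). The Igf2 call was lost without set 3 (adjusted p = 0.093) and without the EV libraries under 2 M counts (adjusted p = 0.11), and the Peg3 call without set 5 (adjusted p = 0.098). Rian had too few counts to be tested without set 4 or 5.

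By likeness over the 18 cell libraries, the genes with the highest Pearson r of log2 CPM were Pclo, Shisa2 and Hs3st3b1 for Grb10 (0.96, 0.95 and 0.95), Dgkh, Rnf111 and Asxl1 for Plagl1 (0.97, 0.97 and 0.96) and Lifr, Mysm1 and Cpe for Peg3 (0.95, 0.93 and 0.93). For Cdkn1c they were Cd14, Meig1 and Phyh (0.95, 0.91 and 0.91), for Meg3 Arhgef17, Rian and Gm19610 (0.88, 0.85 and 0.82), and for Rian Ldb2, Meg3 and Gm36847 (0.86, 0.85 and 0.83). Those for H19 were Traf3ip3, Actc1 and Ptgr2 (0.79, 0.78 and 0.74), for Dlk1 Acpp, Chadl and Eif5a2 (0.80, 0.79 and 0.77) and for Igf2 Gm26680, Mapk15 and Gm884 (0.82, 0.81 and 0.77). Libraries of a culture are alike in many genes, so these values describe the 6 cultures. Igf2 and H19, which share a control region, had an r of 0.14.

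The third question was whether ethanol changed these genes. None of the genes tested was called at either dose in cells or EVs by edgeR with the culture as a block, while the counts of genes called among all tested were 0 of 17792 (0%) at 120 mg/dL and 7 (0.0393%) at 320 mg/dL in cells, and 1 of 11880 (0.00842%) and 10 (0.0842%) in EVs. At an unadjusted p under 0.05 there were 444 (2.5%), 1525 (8.57%), 744 (6.26%) and 1410 (11.9%) genes in that order, and DESeq2 called 4, 96, 12 and 267. In cells 8 of the 10 genes were tested and in EVs 5. At an unadjusted p under 0.05 the 10 genes gave 2 at 320 mg/dL in cells, Peg3 and Grb10, and Peg3 in EVs.

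**Figure D4:**
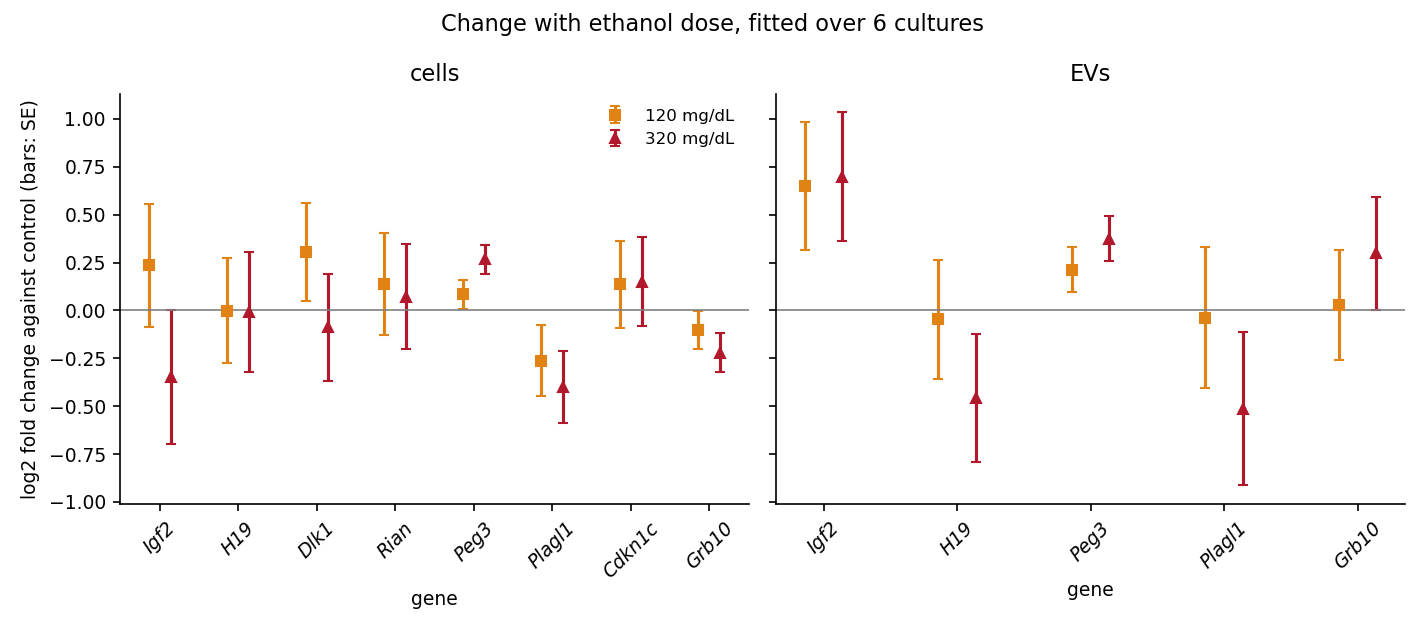
Fitted log2 fold change of each tested gene at 120 mg/dL (squares) and 320 mg/dL (triangles) against control in cells (left, 8 genes) and EVs (right, 5 genes), with bars for 1 SE. Peg3 lies above 0 at both doses in both locations, with 0.27 in cells and 0.37 in EVs at 320 mg/dL, and no point passed the adjusted threshold.

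At 320 mg/dL Peg3 had the smallest p of the 10 genes in both locations. In cells its level at 0 and 320 mg/dL was 28.3 and 31.7 CPM in 3F, 47.7 and 55.9 in 3M, 45.9 and 50.7 in 4F, 67.0 and 65.4 in 4M, 51.7 and 71.4 in 5F and 55.9 and 85.7 in 5M. It was thus higher at 320 mg/dL in 5 of 6 cultures, and the fit gave 0.27 on the log2 scale (SE 0.08, adjusted p = 0.32). In EVs it was higher in 6 of 6 cultures, from 0.09 in 4F to 0.97 in 3F on the log2 scale, and the fit gave 0.37 (SE 0.12, adjusted p = 0.19).

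Grb10 was lower at 320 mg/dL in cells of 6 of 6 cultures, from -0.83 in 3F to -0.05 in 5F, and the fit gave -0.22 on the log2 scale (SE 0.10, adjusted p = 0.57). In EVs it was higher in 5 of 6 with 0.30 (SE 0.30, adjusted p = 0.78). Plagl1 was at -0.40 (SE 0.19, adjusted p = 0.59) in cells at 320 mg/dL. It was lower in 4 of 6 cultures, most in 5F, where the 3 doses gave 19.6, 10.3 and 7.68 CPM, and it was higher in 3M with 4.98, 6.89 and 8.19 CPM. The female minus male difference of this effect was -0.97 (adjusted p = 0.22). Igf2 in EVs was higher than control in 6 of 6 cultures at 120 mg/dL, by 0.65 (SE 0.34, adjusted p = 0.81), and in 4 of 6 at 320 mg/dL, by 0.70 (SE 0.34, adjusted p = 0.43), while in cells the fits gave 0.24 (SE 0.32) and -0.35 (SE 0.35). The other values lay between -0.51 and 0.31, with SEs of 0.08 to 0.40.

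The last question was whether female and male cultures differed. With the counts of a culture summed over its 3 doses, 3 female and 3 male cultures were compared, and no gene of the 10 was called. Of all genes 7 of 20972 (0.0334%) were called in cells and 0 of 14847 (0%) in EVs by edgeR, with 2229 (15%) in EVs at an unadjusted p under 0.05 and 25 by DESeq2. The largest difference in cells was for Grb10, at a higher level in females by 1.5 (SE 0.95, adjusted p = 0.83) in cells and 1.16 (SE 0.68, adjusted p = 0.40) in EVs, where 5F and 4F were first and second but 3F stood below 5M. Cdkn1c was at 1.21 (SE 0.66, adjusted p = 0.38) in EVs and Meg3 at -1.14 (SE 0.96, adjusted p = 0.89) in cells. This test recovered 0 of 200 simulated 2-fold changes, so differences of this size cannot be seen with 3 cultures per sex.

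Other imprinted genes were listed for comparison. Of 48, 11 are listed at 0 in all 36 libraries, among them Snrpn, Ndn, Magel2, Nnat and Kcnq1ot1. Those named overlap other annotated genes, such as Nnat with Blcap and Kcnq1ot1 with Kcnq1. Whether a 0 reflects absence of the RNA or the counting was not tested. Between EVs and cells 29 were tested, of which 18 were called higher in EVs and 8 lower. Among all genes tested 80.5% were called, 38.4% as higher and 42.2% as lower. The median log2 difference of the 29 was 1.14, against -0.08 over all genes tested. The filter on low counts takes both locations together here too, so this split and median can be partly set by it. Peg10, a gene of retroviral origin, averaged 2666 ± 1062 CPM (SD, n = 18 libraries) in EVs against 87.1 ± 21.5 in cells, a log2 difference of 4.92 (adjusted p = 2.2e-21). Kcnk9, a potassium channel, differed by 5.66 (adjusted p = 4.8e-18) and Calcr, the calcitonin receptor, by 3.56 (adjusted p = 5.9e-14). Lower in EVs were Qpct at -3.63, Cd81, a tetraspanin often used as an EV protein marker, at -2.45, and Ube3a, a ubiquitin ligase, at -1.92. Between cultures 23 of 31 tested were called in cells and 21 of 26 in EVs, against 68% and 50.3% of all genes. They were led by Peg12, Rasgrf1 and Mest in cells with ranges of 2.61, 3.13 and 1.19 and by Airn, Inpp5f and Trappc9 in EVs with 3.48, 2.73 and 1.34. None was called for dose or sex.

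Of 24 genes that carry or bind IGF signals, 21 were tested between EVs and cells, and 7 were called higher in EVs and 7 lower. Their median log2 difference was 0.19, against -0.08 and 80.5% called among all genes tested. The ligands Ins1 and Ins2 had at most 1 count in any library. Among receptors, Igf2r, which clears IGF2 from the cell surface and is itself imprinted, was at 87.3 ± 31.4 CPM in cells and 29.7 ± 11 in EVs (SD, n = 18 libraries), a log2 difference of -1.58 (adjusted p = 4.0e-10). Of the binding proteins, Igfbp2 was at 297.2 ± 69.2 CPM in cells and 30.6 ± 10.5 in EVs (log2 difference -3.25, adjusted p = 2.3e-20), Igfbp5 differed by -1.72 and Igfbp7 by 1.25. The substrate Irs1 was higher in EVs by 2.41 (adjusted p = 8.2e-18). So was the RNA-binding protein gene Igf2bp1, whose product binds Igf2 RNA, by 2.32 (adjusted p = 2.5e-12). Its mean was 1.14 CPM in cells and 5.96 in EVs. The related genes Igf2bp2 and Igf2bp3 had higher means than Igf2bp1 in both locations and went the other way. Mean Igf2bp2 was 59.17 CPM in cells and 21.67 in EVs, and mean Igf2bp3 was 17.72 and 12.03 CPM. Between cultures 20 of 22 tested were called in cells and 12 of 19 in EVs, against 68% and 50.3% of all genes. In cells they were led by Igfbp5 with a range of 3.64 from 17.8 ± 2.45 CPM in 3F to 215.6 ± 88.9 CPM in 5M (SD, n = 3 doses), Irs2 with 1.98 and Igf2r with 1.26, and in EVs by Irs2, Igfbp3 and Irs1 with 1.88, 2.52 and 1.49. None was called for dose or sex.

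The microRNA and small nucleolar RNA genes within these loci gave no counts. All 26 that lie within the span of the 10 genes and are among the features, such as Mir675 in H19 and Mir483 in Igf2, are listed at 0 in all 36 libraries, while their hosts were counted. They lie on the same strand as their hosts, so a read from them also falls within the span of the host. Whether a 0 reflects absence of the RNA or the counting was not tested.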

How the data were processed

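RNA of NSCs and of EVs, purified by filtration and ultracentrifugation, was depleted of ribosomal RNA and made into stranded libraries. After trimming and removal of duplicates, the authors mapped reads to mm39 with STAR and made raw counts per gene with HTSeq, and these deposited counts were used without change. The annotation and strand setting of the counting are not given in the sources used here. Per the labels, Trimmomatic and DESeq2 2.11.40.6 were also used.

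The main tests used edgeR 4.0.16 under R 4.3.3: filterByExpr (minimum count 10, minimum total count 15), TMM and quasi-likelihood F tests, with a gene called at a Benjamini-Hochberg adjusted p under 0.05 over all genes tested. The EV against cell fit had sex and dose as terms, the fit of cultures had dose, doses were tested with the culture as a block, and sexes on counts summed over doses. The 18 libraries of a location come from 6 cultures and were taken as independent in the first comparison, so its p-values cover the spread between libraries. In the fit of cultures the p-values rest on the spread between the 3 libraries of a pool, so they are about these 6 cultures only. SEs are the log2 fold change divided by the root of F. Levels are TMM-scaled CPM over 36 libraries, with a prior count of 1 on the log2 scale. DESeq2 1.42.0 was an alternative, besides other scalings, no filter, leaving out each set, and blocks. Dropping EV libraries under 2 M counts, the interactions and the canonical lengths were chosen after the data were seen. Positions come from GENCODE on GRCm39 by symbol, which matched 79.4% of 40205 features, and figures were drawn with Python 3.11.15 and matplotlib 3.10.9.

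EV and cell libraries of a culture and dose come from the same flasks, doses from one culture and sexes from one litter, so they pair by design. Correlations of their deviations had medians of 0.0720 for EV and cell, 0.715 and 0.621 for 120 and 320 mg/dL and control in cells, 0.191 and 0.210 in EVs, and 0.376 and 0.106 for the sexes in cells and EVs.

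The genes, the lists and the tests were chosen with earlier results of these data known. Named are the 10 genes in each comparison, of the lists of other imprinted and of IGF pathway genes the 3 with the largest change in each direction (for cultures the smallest p) among those called, and for each gene tested in cells the 3 with the highest Pearson r. Igf2bp2 and Igf2bp3 are given beside Igf2bp1, and Igf1r and other unnamed list members are covered by the counts. Tested on simulated data with 200 genes changed 2-fold, edgeR recovered 157 between EVs and cells (15281 genes), 85 and 8 between cultures in cells and EVs (18725 and 13193), 147 and 140 at 120 and 320 mg/dL in cells (17792) and 123 and 116 in EVs (11880). It recovered 0 between sexes (20972 and 14847 genes). Of 10 calls between cultures in EVs, 2 were false. The simulated libraries were independent and had a common mean profile apart from the 200 genes. The real ones share cultures and differ in most genes between EVs and cells, so these rates need not hold for them.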

Additional observations from a re-analysis of the deposited data

Results flagged for a closer look

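Of 60 groups of 6 cultures (each gene at 1 dose in 1 location), 11 had a culture that stood far from the other 5. The rule flags about 1 in 20 groups of normally distributed values. CPM, in part from few counts, need not be normal, so the 11 cannot be set against that rate. Grb10 in 5F accounted for 4 of them, with 67.9, 63.3 and 65.7 CPM in cells at 0, 120 and 320 mg/dL, against at most 26.1, 21.4 and 23.2 CPM in the other cultures, and with 24.1 CPM in EVs at 120 mg/dL against at most 9.25 CPM. Meg3 and Rian in 5M cells accounted for another 4, Meg3 with 0.595 and 0.724 CPM at 120 and 320 mg/dL against at most 0.214 and 0.164 CPM, and Rian with 0.790 and 1.33 CPM at 0 and 320 mg/dL against at most 0.429 and 0.463 CPM. The 3 others were single libraries, H19 in 4M cells at 320 mg/dL (3.40 CPM, others at most 1.56), Dlk1 in 5M EVs at 120 mg/dL (3.66 CPM, others at most 2.20) and Rian in 4F EVs at 320 mg/dL (6.75 CPM, others at most 2.92). The 3 doses of a culture share their cells, so the flags of Grb10 in 5F and of Meg3 and Rian in 5M are not separate events.

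Of 58 interaction terms from 8 kinds of test, 2 passed the adjusted p threshold. Both came from 1 kind, in which 8 of the 10 genes were tested and most genes of the whole series passed. The EV minus cell difference varied between cultures over a range of 3.49 on the log2 scale for Cdkn1c (adjusted p = 0.030 by edgeR) and of 1.24 for Peg3 (adjusted p = 0.00012 by edgeR), where 9397 of 15281 genes passed. The ends of the Cdkn1c range, 4F and 3M, rest on few EV counts, 2, 3 and 3 in 4F and 1 in 3M.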

How the results depend on the processing

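Low counts limit some of these values: Meg3 and Mirg had 30 and 20 counts over 18 EV libraries, and a count of 0 allows up to 5.06 CPM in 1 EV library. No EV against cell difference of the 10 genes that was called in any fit changed direction. Igf2 and Plagl1 kept that call under every alternative, and so did Dlk1 and Rian where they were tested, Dlk1 having too few counts without set 3 or 4 and Rian without set 5. Grb10 kept its call between cultures in both locations under every alternative. The cause of the changes below was not tested, except that leaving out a set or using control libraries only leaves fewer samples.

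Between EVs and cells 12302 genes were called, 23256 by DESeq2 and 22029 without a filter. Of the 10 genes 8 were called, 5 with control libraries only and 4 to 7 when a set was left out. Peg3 lost its call with control libraries only, DESeq2 and median-of-ratios size factors, Cdkn1c with control libraries only, library totals, no filter and without set 4, H19 with library totals, and Grb10 with control libraries only. With a block for each pair of EV and cell libraries 12214 genes and the same 8 of the 10 were called.

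Between cultures 9 of the 10 were called in cells, and 5 to 8 without a set. In EVs 6632 genes were called, 2650 to 6039 without a set, and of the 10 genes 4, with 2 under library totals and 2 to 3 without a set. Igf2 lost its call in cells with library totals and with no filter, and Rian and Peg3 lost theirs in EVs with library totals.

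For ethanol no alternative called any of the 10. In cells at 120 mg/dL 0 genes were called and 4 by DESeq2. At 320 mg/dL 7 were called, 96 by DESeq2, 0 to 1 without a set, and 0 with library totals, with median-of-ratios size factors, with no filter, with only the compared doses and without the replicate block. In EVs at 120 mg/dL 1 was called, 12 by DESeq2, 4 with library totals, 157 with no filter, 0 with median-of-ratios size factors or only the compared doses, and 0 to 3 without a set. At 320 mg/dL 10 were called, 267 by DESeq2, 6 with library totals, 207 with no filter, 0 without the replicate block or with only the compared doses, and 0 to 110 without a set.

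Between sexes 7 genes were called in cells, 179 by DESeq2, 994 per library with a dose term and 0 to 6 without a set. In EVs 0 were called, 25 by DESeq2, 22 with library totals, 1 with median-of-ratios size factors, 644 with no filter and 1224 per library with a dose term, where libraries of a culture count as separate and 1 of the 10, Peg3, was called (-0.45, adjusted p = 0.019). With the pregnancy as a replicate block 7 genes were called in cells and 0 in EVs.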
